A study of Homo sapiens with 9 samples.

Results

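Keratin genes and the genes of the cornified layer of the skin lie in long runs of related neighbours, and the replication of 4 such runs was followed in HCT116 and RPE1 cells. Windows were assigned by the clusters' spans in the hg19 build, a rule that uses no measured value, although the clusters were picked with earlier results of these data known. They are the type II keratin cluster on chromosome 12 (chr12:52550001-53350000, with KRT8 and KRT18 at its end), the type I keratin cluster with its keratin-associated genes on chromosome 17 (chr17:38800001-39800000), the epidermal differentiation complex on chromosome 1 (chr1:151950001-153650000) and the KRTAP cluster on chromosome 21 (chr21:31650001-32300000), where a 50 kb window belonged to the cluster that held its centre. They took 16, 20, 34 and 13 windows, that is 83 of the 56728 windows kept genome-wide, and every window of each cluster was kept. The 160 windows within 1 Mb on either side, 40 for each cluster, served as flanks.

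HCT116 is a colorectal carcinoma line, and RPE1 is a telomerase-immortalised line from the retinal pigment epithelium. Both grew untreated apart from a pulse of EdU, a thymidine analogue that is built into newly made DNA, and were then sorted into early, mid and late S phase before the EdU-marked DNA was pulled down and sequenced. HCT116 gave 1 set of 3 libraries and RPE1 gave 2 sets of 3, and no label states that the 2 RPE1 sets were grown as separate cultures. In HCT116 only the mid and late S titles carry a replicate number, and the early S library was joined with them because 1 table holds all of them. The deposited tables hold read counts in 1 kb bins and do not name their count columns, so the libraries of a set are called A, B and C by column position and were not assigned to a fraction of S phase.

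Replication timing describes when in S phase a stretch of DNA is copied. Large domains are copied together, active regions rich in genes usually early and silent regions poor in genes usually late, and many domains that hold tissue genes change their time with cell type. Keratins are the intermediate filament proteins of epithelia, and a filament is built from pairs of 1 type I and 1 type II chain. KRT8 pairs with KRT18 in simple epithelia, such as the lining of the gut, KRT5 pairs with KRT14 in basal cells of stratified epithelia, and KRT1 pairs with KRT10 in the layers above. Filaggrin, encoded by FLG, packs keratin filaments in the outer skin. Involucrin (IVL), loricrin (LORICRIN) and the SPRR and LCE proteins are cross-linked into the cornified envelope, and S100 proteins bind calcium. KRTAP proteins embed the keratins of the hair shaft.

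By RefSeq's gene order (GRCh38.p14), the run from KRT80 to KRT18 held 27 protein-coding genes, all of them keratins and all type II but the last, KRT18, a type I chain. Of these, 4 belonged to simple epithelia, 12 to stratified epithelia, 6 to hair and 5 to the root sheath of the hair. The run from KRT222 to KRT17 held 62, with 34 KRTAP genes between its keratins of simple epithelia (3, KRT19, KRT20 and KRT23), stratified epithelia (8), hair (11) and the root sheath (4). The other 2, KRT222 and KRT24, carry keratin names but were in none of these groups. The run from S100A10 to S100A1 held 63, namely 16 S100 genes at its ends, 7 filaggrin-type genes, 35 genes of a cornified envelope list and 5 others. That list also took in SMCP, PGLYRP3 and PGLYRP4, which are not among the envelope proteins described above. The run from KRTAP24-1 to KRTAP11-1 held 32 KRTAP genes. Genes are given here in their order only, because no hg19 annotation was used to place them in windows.

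Promoters of these genes are shown to give the sequence behind the names and the base composition of each cluster. In RefSeq's table a promoter holds 250 bases before and 50 after 1 start of each gene, which need not be the start used in either cell line. Below, the S100A10 promoter comes from the outer end of the epidermal differentiation complex, FLG from its inner genes, and KRT8, KRT10 and KRTAP11-1 from the other clusters. They lie at chr1:151993810-151994109, chr1:152325190-152325489, chr12:52926420-52926719, chr17:40822565-40822864 and chr21:30881531-30881830 of GRCh38.p14, all on the minus strand, and are written 5′ to 3′ with each CG in capitals.
S100A10: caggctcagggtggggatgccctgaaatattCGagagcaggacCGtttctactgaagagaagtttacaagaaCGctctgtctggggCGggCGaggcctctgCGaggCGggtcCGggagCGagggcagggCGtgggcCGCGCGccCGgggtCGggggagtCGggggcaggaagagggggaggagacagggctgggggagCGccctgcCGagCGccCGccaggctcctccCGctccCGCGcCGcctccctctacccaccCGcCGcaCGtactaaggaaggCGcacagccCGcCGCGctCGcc
FLG: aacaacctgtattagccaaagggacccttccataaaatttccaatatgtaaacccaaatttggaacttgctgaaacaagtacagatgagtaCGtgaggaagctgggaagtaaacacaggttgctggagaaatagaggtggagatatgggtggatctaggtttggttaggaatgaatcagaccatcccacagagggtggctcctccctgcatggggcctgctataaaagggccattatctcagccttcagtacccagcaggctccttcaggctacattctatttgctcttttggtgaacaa
KRT8: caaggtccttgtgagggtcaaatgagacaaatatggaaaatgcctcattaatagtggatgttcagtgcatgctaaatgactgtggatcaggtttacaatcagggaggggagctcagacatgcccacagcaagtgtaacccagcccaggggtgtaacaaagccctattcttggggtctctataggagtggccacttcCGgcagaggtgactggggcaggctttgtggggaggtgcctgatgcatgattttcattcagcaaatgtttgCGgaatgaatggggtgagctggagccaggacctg
KRT10: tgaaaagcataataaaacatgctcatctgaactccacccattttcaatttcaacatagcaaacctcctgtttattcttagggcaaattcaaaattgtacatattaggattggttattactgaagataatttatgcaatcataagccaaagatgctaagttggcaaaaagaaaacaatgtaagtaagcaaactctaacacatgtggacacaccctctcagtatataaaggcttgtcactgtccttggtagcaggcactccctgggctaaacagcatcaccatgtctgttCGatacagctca
KRTAP11-1: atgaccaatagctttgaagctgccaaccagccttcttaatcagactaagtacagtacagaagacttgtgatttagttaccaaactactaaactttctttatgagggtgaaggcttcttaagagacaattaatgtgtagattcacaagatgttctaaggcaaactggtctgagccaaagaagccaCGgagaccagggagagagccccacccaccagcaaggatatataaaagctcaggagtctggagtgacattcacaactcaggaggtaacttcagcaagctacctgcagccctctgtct

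The S100A10 promoter had 32 CG dinucleotides and 71.7% G and C. The FLG, KRT10 and KRTAP11-1 promoters had 1 CG each, with 45.7, 37.7 and 44.3% G and C, and the KRT8 promoter had 2 with 50.7%. A TATAAA motif, the core of the TATA box, began at base 221 of the FLG promoter, base 222 of KRT10 and base 224 of KRTAP11-1, and neither S100A10 nor KRT8 had one in this window.

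Across the matched genes the median G and C content was 53.3% in the epidermal differentiation complex (59 of 63 genes matched), 43.0% in the type I cluster (53 of 62) and 38.3% in the KRTAP cluster (29 of 32), against 62.7% over 15841 protein-coding genes. TATAAA on either strand was present in 50.8, 81.1 and 75.9% of these promoters, against 9.63% of all protein-coding ones. Within the epidermal differentiation complex the S100 promoters had a median of 59.5% G and C. The median was 47.3% for the filaggrin-type promoters and 52.8% for those of the cornified envelope list, SMCP, PGLYRP3 and PGLYRP4 included. In the type II cluster 14 of 27 genes matched, too few for a statement on its composition. These are descriptions of the reference sequence, and a match to the motif is not evidence of a bound factor.

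**Figure D1:**
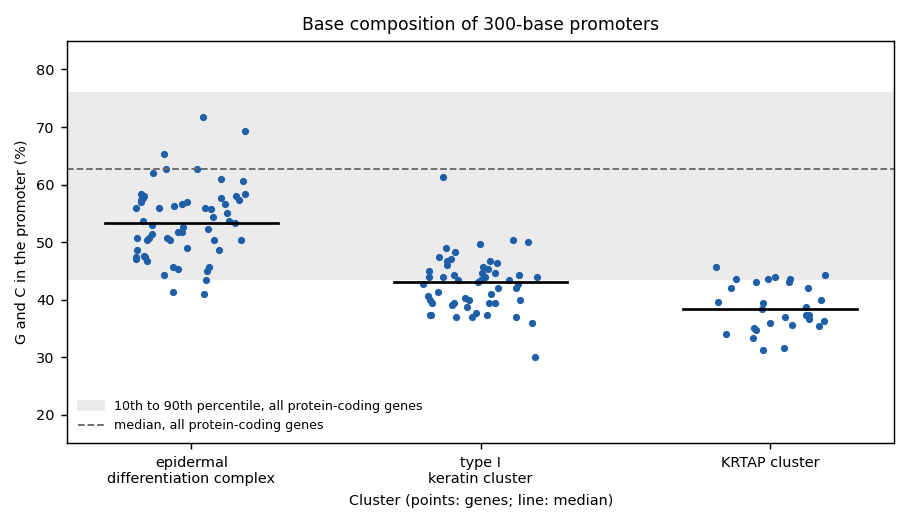
G and C content (vertical axis, percent) of the 300-base RefSeq promoters of each cluster, with 1 point for each gene and a black line at the median; the grey band spans the 10th to 90th percentile of all protein-coding genes and the dashed line is their median of 62.7%. The medians of the type I cluster (43.0%) and of the KRTAP cluster (38.3%) lie below the band, which starts at 43.7%, and that of the epidermal differentiation complex (53.3%) lies inside it.

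The depth behind the values was set by library totals of 6170299 to 22930078 reads. Within a cluster a 50 kb window held 291 to 619 reads in HCT116 and 274 to 1546 in an RPE1 set. For each window the reads of the 3 libraries were scaled to a common library total and turned into shares of 100%, and a window is said to be led by the library with the largest share. The leading axis is the first principal component of the log2 scaled reads of a set, in autosomal standard deviations (SD). Its negative end holds windows rich in library A and its positive end windows rich in library C, and its median over all kept windows was -0.337 in HCT116, against 0.202 and 0.124 in RPE1 sets 1 and 2. Over the 83 windows the axis of the RPE1 sets correlated at r = 0.981, while that of HCT116 correlated at 0.761 and 0.721 with RPE1 sets 1 and 2; windows are neighbours and share libraries, so these are descriptions. A single HCT116 set carries no replicate error, no test across sets was made, since an exact permutation test over 3 sets cannot give a p below 0.333, and the RPE1 sets alone show how far repeats differ.

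On the axis the epidermal differentiation complex differed most between the lines. Its axis averaged -0.641 in HCT116, against 0.170 in RPE1 set 1 and 0.219 in RPE1 set 2. The HCT116 value lay 0.835 SD below the RPE1 mean of 0.195 ± 0.035 (SD, n = 2), while the RPE1 sets lay 0.049 apart. Of the 34 windows, 19 (55.9%) had HCT116 at least 1 SD below both RPE1 sets, against 7.78% of all kept windows. On normal ranks of the axis, which remove differences in its distribution between the lines, 7 windows (20.6%) did, against 6.04% of all kept windows, and the gap between the lines was -0.617. No window of any of the clusters had HCT116 at least 1 SD above both, which held for 3.26% of all kept windows. In the flanks of the complex the lines differed the other way, with an axis of -0.946 in HCT116 against a mean of -1.28 ± 0.0063 in RPE1 (SD, n = 2).

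The reads of the complex were divided among the libraries as follows. Library A held 43.0% in HCT116 (95% Wilson interval 42.2 to 43.8%), against 32.3 and 31.5% in RPE1 sets 1 and 2. Library B held 37.6% in HCT116 (36.8 to 38.3%), against 30.4 and 32.0% in the RPE1 sets. Library C held 19.5% in HCT116 (18.7 to 20.2%), against 37.4 and 36.5% in the RPE1 sets. In HCT116 the C share was lower, and the A and B shares higher, than in either RPE1 set. The intervals cover counting error only, and reads without molecular identifiers are not independent molecules.

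In all 3 sets the complex stood apart from its surroundings. Library A led all 40 flank windows in HCT116 and in both RPE1 sets, with 56.0, 64.4 and 63.8% of their reads. Of all kept windows, A led 33% in HCT116 and 26.9% in both RPE1 sets. The axis of the complex exceeded that of its flanks by 0.306 in HCT116, against 1.45 and 1.49 in the RPE1 sets. The complex was therefore an island in both lines, and the step was smaller in HCT116 by far more than the RPE1 sets differed.

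Inside the complex, HCT116 had 18 windows led by A, 16 by B and 0 by C, against 8, 9 and 17 in RPE1 set 1 and 10, 8 and 16 in RPE1 set 2. Windows led by A in HCT116 made up 52.9% of the complex, against 33% of all kept windows. Those led by C in HCT116 made up 0%, against 34.3% of all kept windows. In both RPE1 sets A led 23.5% and B led 17.6% of the complex, against 26.9 and 25.5% of all kept windows. The leaders were sorted along the chromosome. In HCT116 a single run led by B, chr1:152250001-153050000, lay between windows led by A. In RPE1 set 1 the order was A, B, C, B, A, with C leading chr1:152300001-153150000. RPE1 set 2 gave the same order with C leading chr1:152350001-153100000, apart from 1 window led by C at chr1:152250001-152300000. The RPE1 sets had different leaders in 5 of the 34 windows (14.7%), against 10.8% of all kept windows, and these lay at the borders of the runs.

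The 15 windows of chr1:152350001-153100000 were led by C in both RPE1 sets, which is 44.1% of the complex, against 36.9% of all kept windows. There library C held 22.5% of reads in HCT116 (21.3 to 23.7%), against 63.7 and 56.2% in RPE1 sets 1 and 2. Library B held 48.4% in HCT116 (47.2 to 49.7%), against 20.5 and 29.4% in the RPE1 sets. Library A held 29.1% in HCT116, against 15.8 and 14.4% in the RPE1 sets. These windows were picked by their lead by C in RPE1, so their high C share in RPE1 describes that choice. In HCT116 the largest share in this core of the complex was that of B. Windows led by B in HCT116 and by C in both RPE1 sets numbered 14 of 34 (41.2%), against 9.1% of all kept windows. Those led by A in HCT116 and B in both RPE1 sets numbered 6 (17.6%), against 6.05%, and 1 window (2.94%) was led by A in HCT116 and C in both RPE1 sets, against 0.829%.

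The 19 differing windows formed 2 runs parted by 1 window. They were picked by their distance between the lines, so the gaps of the runs describe that choice and add no separate result. The first, chr1:152200001-152550000, averaged -0.523 on the axis in HCT116, against 0.928 ± 0.120 in RPE1 (SD, n = 2). The second, chr1:152600001-153200000, was 600 kb long and averaged -0.394 in HCT116, against 1.07 ± 0.028 in RPE1 (SD, n = 2). Of the 328 runs of at least 5 windows genome-wide in which HCT116 lay below RPE1, 44 were longer than the second run and 12 were as long. The window between them reached 0.150 in HCT116, against 1.23 and 0.934 in the RPE1 sets, and missed the 1 SD distance to RPE1 set 2 only. It was thinly covered, with 274 and 323 reads in the RPE1 sets. Relative to the autosomal median its scaled reads were 0.387 and 0.384 in the RPE1 sets, against 0.667 in HCT116. The cause of this drop was not tested.

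The widest gap fell at chr1:153000001-153050000, where HCT116 had -0.665, against 1.13 and 1.27 in the RPE1 sets. In that window library C held 19.04% in HCT116, against 61.9 and 50.6% in the RPE1 sets. The highest HCT116 value of the complex, 0.255, fell at chr1:152650001-152700000, where the RPE1 sets had 1.33 and 1.32 and where library C reached its highest share in HCT116 (30.6%) and in RPE1 set 1 (71.9%). The inner windows of the complex thus lay nearest the C end in both lines.

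The places where the axis crossed 0 also differed. The axis stayed above 0 from 152539 to 152705 kb of chromosome 1 in HCT116, over 3 windows, against 152202 to 153206 kb in RPE1 set 1 and 152195 to 153218 kb in RPE1 set 2, over 20 windows each. The crossings of the RPE1 sets fell in the same pairs of neighbouring windows on both sides. The value 0 is the autosomal mean of a set. The median of all kept windows was -0.337 in HCT116, against 0.202 and 0.124 in the RPE1 sets. A crossing of 0 therefore did not mark the same rank in both lines, and crossings on ranks were not computed. The last 6 windows, chr1:153350001-153650000, were led by A in all 3 sets, with A shares of 59.2% in HCT116, against 67.0 and 63.8% in the RPE1 sets. These windows were picked by their lead by A in both RPE1 sets, so their high A share and low axis in RPE1 describe that choice. At that end, toward which RefSeq's order places most of the S100 genes, the axis was -0.897 in HCT116, against -1.24 in both RPE1 sets. Over the last 11 windows, chr1:153100001-153650000, a stretch set by position, the axis was -0.907 in HCT116, against -0.726 and -0.702 in the RPE1 sets. HCT116 thus lay below RPE1 over that stretch, while it lay above RPE1 in the flanks.

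**Figure D2:**
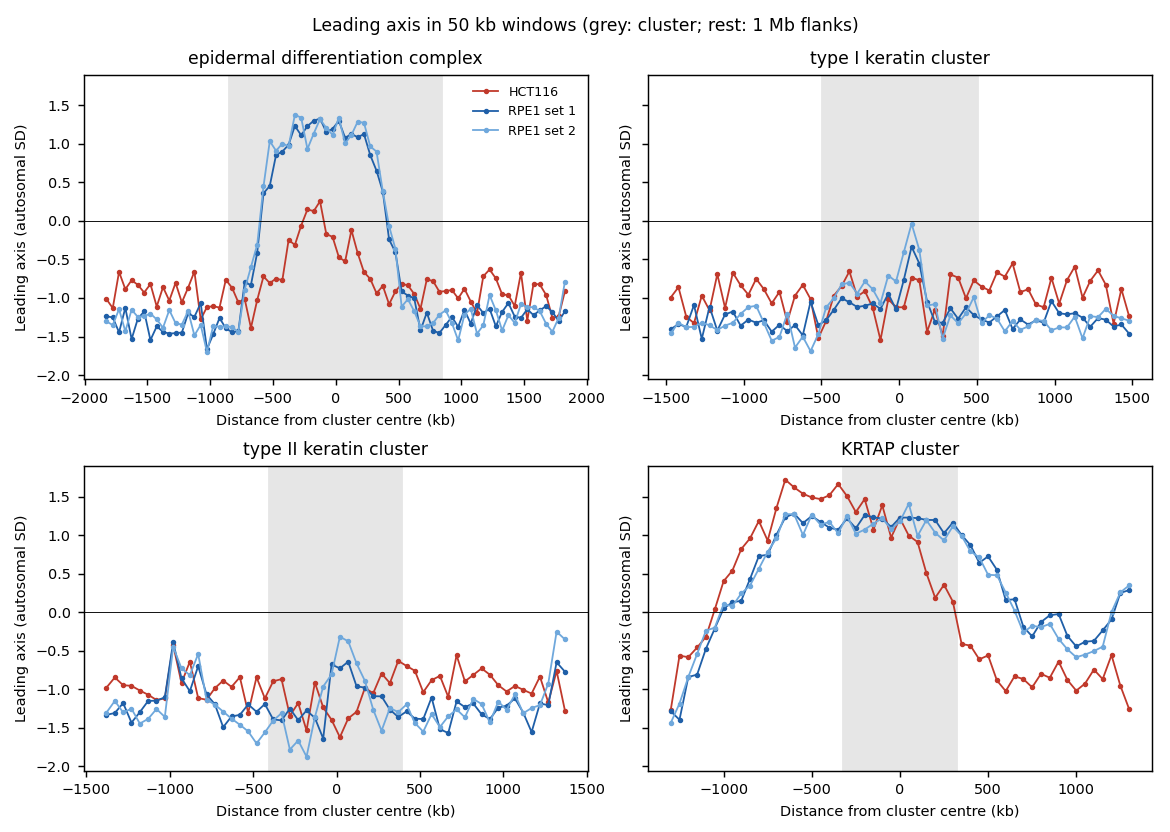
Leading axis (vertical, autosomal SD) of each 50 kb window against distance from the centre of the cluster (horizontal, kb) in HCT116 (red), RPE1 set 1 (dark blue) and RPE1 set 2 (light blue), with the cluster shaded and the 1 Mb flanks outside it. The RPE1 lines rise above 1 across the core of the epidermal differentiation complex while HCT116 peaks at 0.255, and both lines reach above 1 in the KRTAP cluster.

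The type I keratin cluster was led by A throughout in HCT116 and largely by B in RPE1. All 20 windows were led by A in HCT116 (100%, against 33% of all kept windows), while RPE1 set 1 had 7 led by A and 13 by B, and RPE1 set 2 had 8 and 12. The 12 windows led by B in both RPE1 sets (60%, against 25.5% of all kept windows) formed 1 run, chr17:38900001-39500000. All of them were led by A in HCT116, as was every window of the cluster. Windows led by A in HCT116 and by B in both RPE1 sets thus made up 60% of the cluster, against 6.05% of all kept windows. None of the 40 flank windows had this pattern. The RPE1 sets had different leaders in 1 window (5%, against 10.8%).

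Over the whole cluster library A held 54.3% in HCT116 (53.2 to 55.3%), against 45.6 and 43.5% in RPE1 sets 1 and 2. Library B held 29.4% in HCT116 (28.5 to 30.3%), against 49.5 and 41.0% in the RPE1 sets. Both differences were wider than the gap between the RPE1 sets. Library C held 16.3% in HCT116, against 4.98 and 15.5% in the RPE1 sets, and its distance of 6.10 points from the RPE1 mean was smaller than the 10.5 points between those sets.

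The contrast with the surroundings was steep in RPE1 and slight in HCT116. The A share of the cluster was 2.94 percentage points below that of its flanks in HCT116 (54.3% against 57.2%). In the RPE1 sets it was 22.3 points below (45.6% against 67.9%) and 23.1 points below (43.5% against 66.7%). For library B the cluster exceeded its flanks by 4.11 points in HCT116, against 20.9 and 25.6 in the RPE1 sets. In HCT116 the cluster lay inside an unbroken run led by A that reached from chr17:34900001 to 49500000, a length of 14600 kb, whereas in both RPE1 sets the run led by B cut into the A-led domain.

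In the run led by B in RPE1, which was picked by that lead, library B held 33.1% of reads in HCT116 (31.9 to 34.3%), against 55.7 and 46.8% in the RPE1 sets. Library A held 50.9% in HCT116, against 38.5 and 37.1% in the RPE1 sets. A weaker rise of B was nevertheless seen in HCT116 at the same place. Its highest B share of the cluster, 41.9%, fell at chr17:39300001-39350000, the window that also had the highest B share in RPE1 set 1 (62.8%) and RPE1 set 2 (51.9%), and A still led there in HCT116 with 44.4%.

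The axis alone showed little of this. It averaged -1.02 in HCT116, against -1.06 in RPE1 set 1 and -0.910 in RPE1 set 2, and the difference of -0.037 from the RPE1 mean was smaller than the 0.146 between the RPE1 sets. Library B had a weight of -0.207 in the HCT116 axis, against -0.287 and 0.105 in the RPE1 axes, so that a window led by B does not take the same place on the 3 axes. With the axis replaced by its normal ranks over the genome the difference was -0.444. No window of the cluster reached the 1 SD distance from both RPE1 sets, while on normal ranks HCT116 lay below both in 2 of 20 (10%), against 6.04% of all kept windows, too near that share to be read as a result about the cluster. The lowest HCT116 minus RPE1 difference, at chr17:39350001-39400000, came from -0.734 in HCT116, against -0.334 and -0.035 in the RPE1 sets. The highest, at chr17:39650001-39700000, came from -0.736 in HCT116, against -1.27 and -1.33 in the RPE1 sets.

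**Figure D3:**
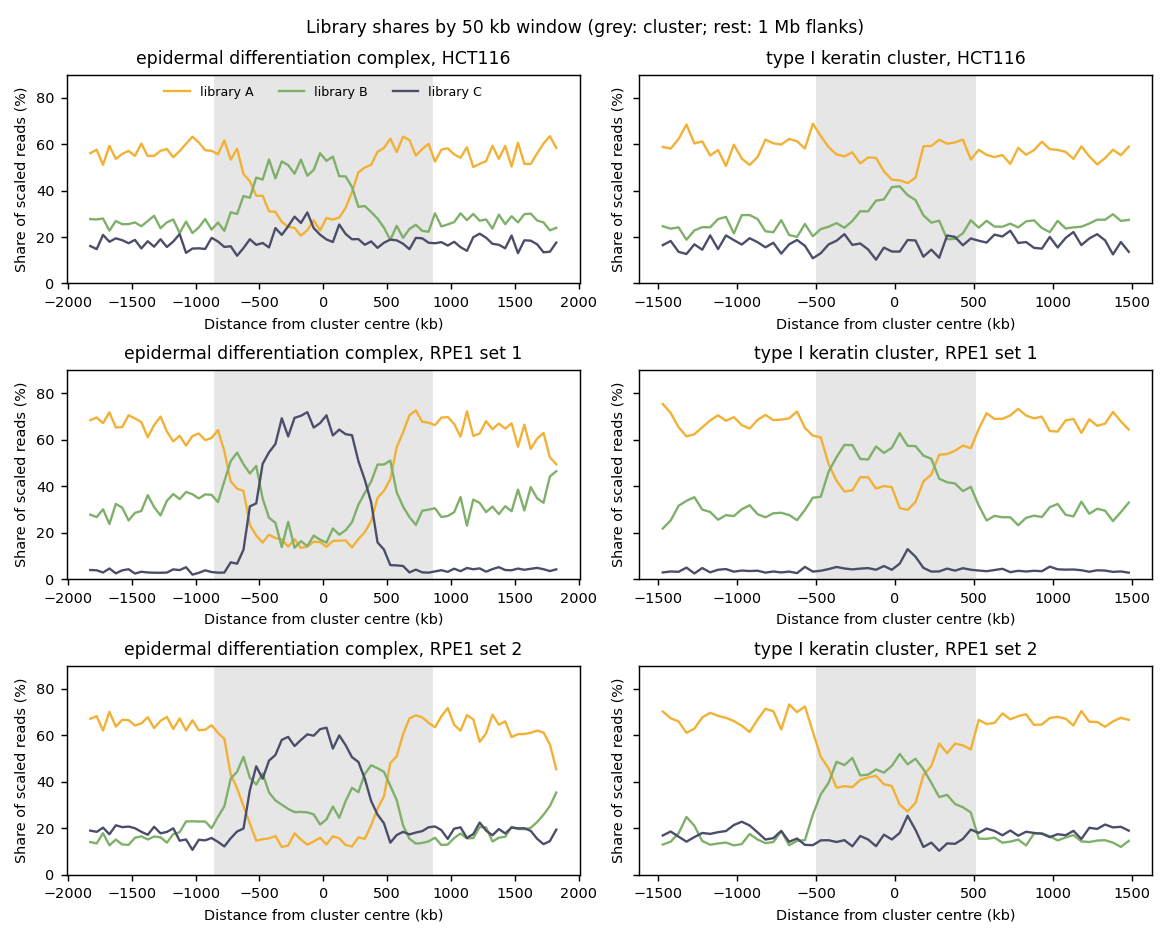
Share of scaled reads (vertical, percent) held by libraries A (yellow), B (green) and C (dark) in each 50 kb window against distance from the cluster's centre (horizontal, kb), for the epidermal differentiation complex (left) and the type I keratin cluster (right), with HCT116 in the top row and RPE1 sets 1 and 2 under it. In the complex B is the highest line in HCT116 over most windows where C is highest in RPE1, and in the type I cluster A stays highest in HCT116 where B is highest in RPE1.

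The type II keratin cluster, which ends with KRT8 and KRT18, the keratin pair of simple epithelia, was led by A in all 16 windows in HCT116 (100%, against 33% of all kept windows). RPE1 set 1 had 10 windows led by A and 6 by B, and RPE1 set 2 had 11 and 5, so that 10 of 16 (62.5%) were led by A in both, against 26.9% of all kept windows. The 5 windows led by B in both RPE1 sets (31.2%, against 25.5%) formed the run chr12:52900001-53150000. All 5 were led by A in HCT116, as was every window of the cluster. Windows led by A in HCT116 and by B in both RPE1 sets thus made up 31.2% of the cluster, against 6.05% of all kept windows. The flanks held 5 such windows of 40.

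In this run library B held 22.2% of reads in HCT116 (20.4 to 24.0%), against 56.8 and 51.0% in RPE1 sets 1 and 2. Library A held 65.1% in HCT116 (62.8 to 67.3%), against 36.5 and 33.4% in the RPE1 sets. The run was as rich in A as the rest of the cluster in HCT116. Its lead by B in RPE1 was the rule by which it was picked. The widest gap lay at chr12:52950001-53000000, where the axis was -1.62 in HCT116, against -0.728 and -0.318 in the RPE1 sets.

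Over the whole cluster library A held 62.7% in HCT116 (61.5 to 63.9%), against 59.4 and 54.8% in the RPE1 sets. Library B held 21.7% in HCT116 (20.8 to 22.7%), against 36.5 and 29.7% in the RPE1 sets. The difference in A of 5.63 points from the RPE1 mean was little wider than the 4.53 points between the RPE1 sets. On the axis the cluster had -1.13 in HCT116, against -1.16 and -1.17 in the RPE1 sets, and no window differed by 1 SD from both. That small difference of 0.038 from the RPE1 mean turned to -0.048 with 100 kb windows and to -0.312 on normal ranks. On ranks HCT116 lay at least 1 SD below both RPE1 sets in 4 of 16 windows (25%), against 6.04% of all kept windows, and above both in 1 (6.25%), against 4.44%.

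Among all kept windows of a set, the cluster was rich in A. Of its 16 windows, 14 (87.5%) had an A share among the highest 5% of windows in HCT116, against 5 (31.2%) among the highest 5% in RPE1 set 1 and 5 (31.2%) among the highest 5% in RPE1 set 2. For its flanks these counts were 15, 11 and 11 of 40. In the type I cluster they were 7 of 20 in HCT116 and 0 in both RPE1 sets, while its flanks had 14, 25 and 20 of 40. The A-rich windows of the type I cluster in HCT116 thus made up the same share of the cluster as of its flanks (35% of 20 windows and 14 of 40).

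The KRT8 and KRT18 end, the last 2 windows at chr12:53250001-53350000, was led by A in all 3 sets. The A share was 54.2% in HCT116 (51.3 to 57.1%), against 65.7 and 65.3% in RPE1 sets 1 and 2. The axis was -0.775 in HCT116, against -1.31 and -1.27 in the RPE1 sets (mean -1.29 ± 0.030, SD, n = 2), and the gap between the lines was wider than that spread. This end therefore differed from the inner run in direction, since A was the smaller share in HCT116 here and the larger share there. The last window, chr12:53300001-53350000, had the highest HCT116 minus RPE1 difference of the cluster, 0.697, and the right flank beyond it had the same direction, with -0.908 in HCT116 against -1.21 ± 0.045 in RPE1 (SD, n = 2). At the KRT80 end the first 5 windows, chr12:52550001-52800000, a stretch set by position, had A shares of 65.96% in HCT116, against 76.65 and 73.79% in the RPE1 sets.

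The KRTAP cluster on chromosome 21 was the most C-rich of the 4 in every set. Library C held 48.1% of its reads in HCT116 (46.8 to 49.4%), against 65.9 and 54.7% in RPE1 sets 1 and 2. Its distance of 12.2 points from the RPE1 mean was little wider than the 11.2 points between those sets. Library A held 20.5% in HCT116 (19.6 to 21.6%), against 15.1 and 14.9% in the RPE1 sets. C led 9 of the 13 windows in HCT116 (69.2%, against 34.3% of all kept windows) and B the other 4, while C led all 13 in both RPE1 sets (100%, against 36.9%).

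Both ends of this cluster behaved differently. Over the first 4 windows, chr21:31650001-31850000, the axis was 1.34 in HCT116, against 1.201 and 1.124 in the RPE1 sets. The shares did not place HCT116 nearer the C end than both RPE1 sets there. Library C held 57.69% in HCT116, against 65.98 and 54.75%, and library A held 17.97%, against 14.27 and 14.92%. The 95th percentile of the axis over all kept windows was also higher in HCT116, at 1.58 against 1.304 and 1.368. Over the last 4 windows, chr21:32100001-32300000, the axis was 0.298 in HCT116, against 1.15 and 1.07 in the RPE1 sets. Library C held 33.3% there in HCT116 (31.0 to 35.7%), against 64.5 and 53.1% in the RPE1 sets, and all 4 windows were led by B in HCT116 and by C in both RPE1 sets (30.8% of the cluster, against 9.1% of all kept windows). The last window, chr21:32250001-32300000, fell just short of the 1 SD distance, with 0.139 in HCT116, against 1.16 and 1.11 in the RPE1 sets.

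The difference continued beyond the cluster. In its right flank the axis was -0.804 in HCT116, against 0.107 and 0.033 in the RPE1 sets. There 8 of the 20 windows had HCT116 at least 1 SD below both RPE1 sets, against 7.78% of all kept windows. In its left flank the axis was 0.703 in HCT116, against 0.324 and 0.340 in the RPE1 sets. The axis fell through 0 at 32287.6 kb of chromosome 21 in HCT116, against 32648.6 and 32628.8 kb in the RPE1 sets. The crossing of 0, which is not the same rank in both lines, lay at the edge of the cluster in HCT116 and outside it in RPE1. At the other side it passed 0 at 30919.9 kb in HCT116, against 30965.5 and 30957.8 kb in the RPE1 sets. As a mean over the cluster the axis was 0.925 in HCT116, against 1.18 and 1.13 in the RPE1 sets, and cluster minus flanks was 0.976 in HCT116, against 0.969 and 0.941 in the RPE1 sets. The step depends on the width of the flanks, being 0.571 in HCT116 and 0.460 as the RPE1 mean with 500 kb flanks.

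**Figure D4:**
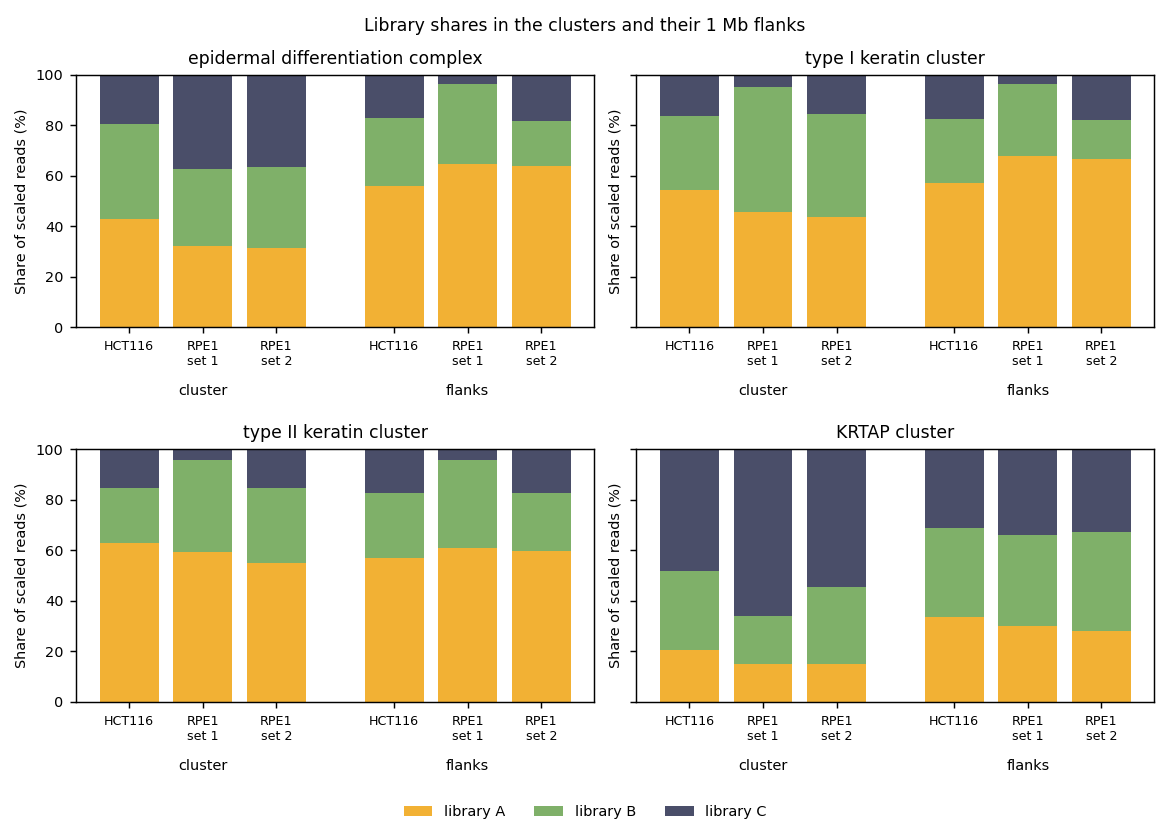
Stacked shares of scaled reads (vertical, percent) held by libraries A, B and C in each cluster and in its 1 Mb flanks, with HCT116 left of RPE1 sets 1 and 2. The A share of the type I cluster is close to that of its flanks in HCT116 (54.3 and 57.2%) and far below it in RPE1 set 1 (45.6 and 67.9%), and the KRTAP cluster has the largest C share in every set.

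Set side by side, the clusters followed the same order on the axis in the 3 sets. From the C end to the A end they were the KRTAP cluster, the epidermal differentiation complex, the type I cluster and the type II cluster, with values of 0.925, -0.641, -1.02 and -1.13 in HCT116. In RPE1 set 1 the values were 1.18, 0.170, -1.06 and -1.16, and in RPE1 set 2 they were 1.13, 0.219, -0.910 and -1.17. The type I cluster exceeded the type II cluster by 0.108 in HCT116, against 0.103 and 0.264 in the RPE1 sets. The RPE1 sets differed by 0.146 for the type I cluster, which the step exceeds in RPE1 set 2 only, so these neighbours were not parted beyond the spread in HCT116 or RPE1 set 1, while the other steps were wider in each set. On normal ranks the step was 0.341 in HCT116 and 0.473 as the RPE1 mean, in the same direction.

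**Figure D5:**
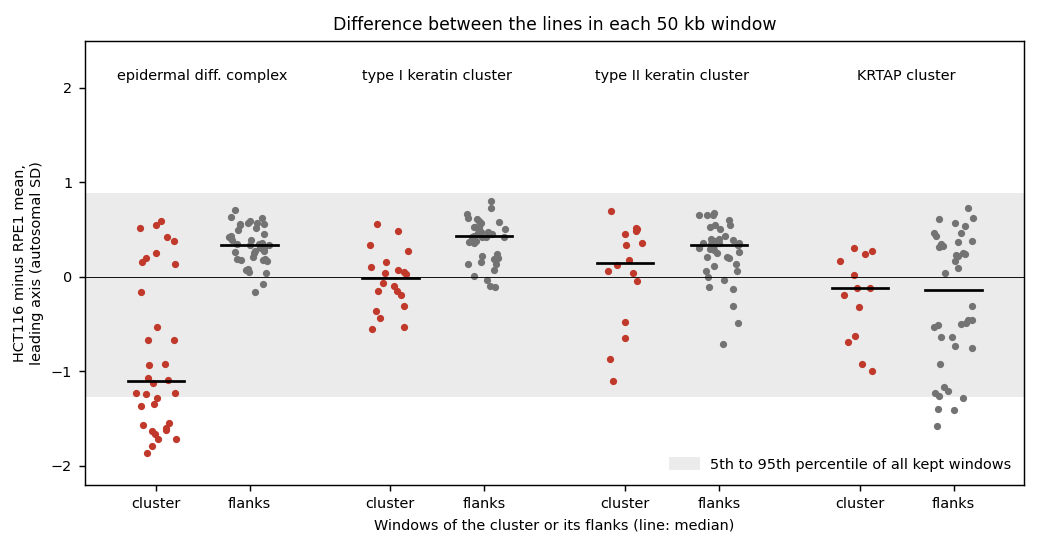
HCT116 minus RPE1 mean on the leading axis (vertical, autosomal SD) for each 50 kb window of the clusters (red) and of their flanks (grey), with a black line at the median and a grey band from the 5th to the 95th percentile of all kept windows (-1.26 to 0.874). Many windows of the epidermal differentiation complex lie below the band (median -1.11), while all windows of both keratin clusters lie inside it.

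Read depth over the clusters was compared because copy number and the ease of mapping change counts. Summed scaled reads per window, relative to the autosomal median of the set, were 0.921 in HCT116 against 0.981 and 0.972 in the RPE1 sets for the epidermal differentiation complex, a ratio of 0.944 ± 0.0058 (SD over the RPE1 sets, n = 2). The ratio was 0.993 ± 0.148 for the type I cluster, 0.918 ± 0.081 for the type II cluster and 1.05 ± 0.151 for the KRTAP cluster. These depth ratios, taken over whole clusters and not single windows, were within 0.1 of 1 as means over the RPE1 sets only. Depth in the KRTAP cluster was 1.10 in HCT116, between 1.17 and 0.953 in the RPE1 sets. In the type I cluster it was 0.930, between 0.847 and 1.05, and in the type II cluster 0.826, below 0.847 and 0.960. The part of depth in the share differences was not tested.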

How the data were processed

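Each deposited table holds raw read counts (whole numbers) for 1 kb bins of hg19, with 3 unnamed count columns, 1 for each library of a set. Bowtie2, SAMtools 1.2 and bedtools 2.25 were used, per the submitters' processing notes, with no role stated; the table names given in the labels imply that duplicates were removed. Mapping filters are not given in the sources used here. Because no column is tied to a fraction, early, mid and late S were not compared by name.

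Python 3.11, numpy 2.4.6 and pandas 2.3.3 were used. Counts of the 22 autosomes and chromosome X were added up in 50 kb windows. A window was kept with 25 or more non-empty bins, 50 or more RPE1 reads and 30 or more reads in every set (56728 of 60739). Libraries were scaled to their mean total over kept windows. The leading axis is the first principal component of log2(scaled reads + 1), centred within windows, over autosomal windows, in autosomal SD, with library C of RPE1 set 1 on the positive side; it took 82.9% of the variance in HCT116, and 95.1 and 82.1% in RPE1 sets 1 and 2. Shares of a cluster were taken from its summed scaled reads, with Wilson intervals of the unscaled counts carried over.

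The members and lists were chosen with earlier results of these data known, and counts by leading library and by A share were added after the data were examined. The text names KRT8, KRT18, the first and last gene of each run, genes of the fixed lists, and in each cluster the windows with the highest and lowest HCT116 minus RPE1 difference. RefSeq tables (GRCh38.p14) gave gene order and promoters, using the first entry of a gene; no coordinate was converted. KRT18 and KRT14 are among the genes with no entry matched.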

Additional observations from a re-analysis of the deposited data

Results flagged for a closer look

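On the axis, the step from the flanks to the cluster ran one way in HCT116 and the other way in both RPE1 sets in the keratin clusters, and the A and B shares did the same in the type II cluster only. For the type II cluster, cluster minus flanks on the axis was -0.192 in HCT116, against 0.038 and 0.021 in RPE1 sets 1 and 2. These RPE1 steps are smaller than the spread of 0.071 between the RPE1 sets, pooled over the clusters, and their mean of 0.030 took the sign of HCT116 with 2 Mb flanks (-0.089) and on normal ranks (-0.062). Its A share exceeded that of the flanks by 5.83 percentage points in HCT116, against -1.39 and -4.97 in the RPE1 sets. Its B share differed from the flanks by -3.88 points in HCT116, against 1.38 and 6.999 in the RPE1 sets. For the type I cluster, cluster minus flanks on the axis was -0.077 in HCT116, against 0.245 and 0.438 in the RPE1 sets, while its A share lay below and its B share above that of the flanks in all 3 sets. These opposite directions were not tested, because HCT116 has 1 set.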

How the results depend on the processing

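Of 432 alternative values, 381 were counted as moving by less than the spread between the RPE1 sets, or by less than 1.5 times for shares of windows. The other 51 moved further. The 381 include the C minus A share in percentage points, which is in another unit and cannot be set against the spread of the axis. By that measure HCT116 minus RPE1 was -28.6 in the complex, -17.8 in the KRTAP cluster, -3.65 in the type I and 0.0996 in the type II cluster. Of 120 alternatives to signed differences, 5 turned the sign, all in the keratin clusters and from values smaller than that spread. Each choice was varied singly (20 and 100 kb windows, no filter, any overlap with the span, extreme bins removed, thinning to the smallest library, flank width, normal ranks, C minus A share in place of the axis, threshold, and each RPE1 set left out). With normal ranks of the axis, HCT116 minus RPE1 was -0.617 in the epidermal differentiation complex, -0.444 and -0.312 in the type I and type II clusters and -0.320 in the KRTAP cluster. Cluster minus flanks on ranks was 0.456, -0.238, -0.617 and 0.673 in HCT116 in the same order of clusters, and 1.40, 0.622 and -0.062 in RPE1 for the complex, the type I and the type II cluster. On ranks 20.6% of windows differed in the complex, 10% in the type I and 31.2% in the type II cluster (either direction), against 6.04% of all kept windows below and 4.44% above. With 100 kb windows HCT116 minus RPE1 was -0.168 in the KRTAP and -0.048 in the type II cluster, whose direction thus turned, and cluster minus flanks in HCT116 was 1.10 and -0.276. With 500 kb flanks, cluster minus flanks in the KRTAP cluster was 0.571 in HCT116 and 0.460 in RPE1, and with 2 Mb flanks 1.24 and 1.34; for the type II cluster it was 0.108 with 500 kb and -0.089 with 2 Mb flanks in RPE1, against 0.030 with 1 Mb, and the sign turned. Leaving out each RPE1 set in turn gave -0.110 to 0.036 for HCT116 minus RPE1 (the sign turning without set 2) and 0.245 to 0.438 for cluster minus flanks in the type I cluster, and 0 to 15.4% of windows differing in the KRTAP and 0 to 12.5% in the type II cluster, where 9.79% (without set 2) and 8.48% (without set 1) of all kept windows lay below. With 20 kb windows 3.03% of KRTAP and 5.13% of type II windows differed, all below, against 7.75% of all kept ones. At 0.5 SD 30.8, 5 and 25% of the KRTAP, type I and type II windows differed, against 19% of all kept windows below and 11.9% above, so the keratin clusters held no excess. At 1.5 SD 26.5% of the complex lay below, against 2.09%. The cause of these moves was not tested. HCT116 depth, 291 to 619 reads in a window, limits single windows more than cluster means. No paired analysis was possible because HCT116 has 1 set and the columns carry no replicate number that pairs the lines.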

Other observations

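Depth separated most of the clusters from their flanks in all 3 sets. Relative to the autosomal median, scaled reads per window were 0.921 in the epidermal differentiation complex and 1.16 in its flanks in HCT116, against 0.981 and 1.298 in RPE1 set 1 and 0.972 and 1.31 in RPE1 set 2. For the type I cluster the values were 0.930 and 1.09 in HCT116, against 0.847 and 1.31, and 1.05 and 1.26 in the RPE1 sets. The type II cluster had 0.826 and its flanks 1.05 in HCT116, against 0.847 and 1.15, and 0.960 and 1.22 in the RPE1 sets. The KRTAP cluster did not follow this, with 1.10 and 1.09 in HCT116, against 1.17 and 1.01, and 0.953 and 1.11 in the RPE1 sets.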
